A study of Mus musculus with 2 samples.

Results

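The 39 genes described here are those of the enzymes that load amino acids onto transfer RNA, 20 of them counted as cytosolic and 16 as mitochondrial, together with 3 scaffold proteins of the cytosolic multi-synthetase complex. They were chosen by gene symbol from the 16803 genes of the deposited table, and all 39 were found there. A symbol that ends in 2 was taken as the mitochondrial form, Farsa and Farsb as the subunits of the cytosolic phenylalanine enzyme, and Gars and Kars, whose products serve both compartments, were kept with the cytosolic genes. RNA sequencing compared 2 libraries of NE4C cells, a mouse neural stem line kept in culture and derived from p53-deficient embryonic brain: 1 library of normally cultured control cells and 1 of cells treated with HTL, homocysteine thiolactone. No dose or time of treatment was given in the labels of these libraries, and both were made from total RNA of cells grown on poly-L-lysine. For its work on protein modifications the paper describes a low-serum period before HTL, and it does not say whether these libraries had one. The comparison asks how transcript levels of the synthetases differ between HTL-treated and control cells.

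Aminoacyl-tRNA synthetases join each amino acid to its transfer RNA and so supply the ribosome. Cells hold a cytosolic set and a mitochondrial set, both encoded in the nucleus and, for most amino acids, by separate genes. Several cytosolic enzymes are held together by the scaffold proteins in the multi-synthetase complex. Many cytosolic synthetase genes are also known targets of ATF4, the transcription factor of the integrated stress response, and methionyl-tRNA synthetase, the product of Mars, makes homocysteine thiolactone when it edits homocysteine.

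The control library held 10350665 reads assigned to genes and the HTL library 9102076. With 1 library per condition there was no replicate check. The two-sided exact binomial test of a gene's reads against the library totals, with Benjamini-Hochberg adjustment over 13442 genes, therefore compares these libraries, not the conditions. Its p-values and 95% intervals cover counting error only, because 1 library per condition gives no measure of the variation between cultures. Sequenced fragments that carry no molecular identifier can also be copies of the same molecule, so that counting error itself may be understated. A gene is said to have risen or fallen where the adjusted p was at most 0.001. The 6 neural stem cell markers examined were all detected, with a summed level of 180.0 FPKM (fragments per kilobase of transcript, scaled to the depth of the library) in control and 117 in HTL. Sox2 (34.7 and 12.6) and Vim (78.5 and 38.8) made up most of that difference, while Nes had 25.1 and 24.1 FPKM and Msi1 38.7 and 39.5. The other marker sums were 20.1 and 27.7 for neurons (Tubb3 went from 16.3 to 24.8, and Dcx and Map2 were lower in HTL), 18.2 and 18.1 for astrocytes (2 of 4 markers found), 3.93 and 4.32 for oligodendrocytes, 1.22 and 1.76 for mesenchymal cells and 0.34 and 0.01 for blood and microglia (1 of 3 found). Their part in the results was not tested. In bulk RNA, fewer cells that express a gene and less of its RNA per cell cannot be told apart.

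Cytosolic synthetase transcripts were on balance higher in HTL and mitochondrial ones lower. Of the 20 cytosolic genes 14 rose and 2 fell, while of the 16 mitochondrial genes 0 rose and 7 fell, and none of the 3 scaffold genes passed the test. Among all genes tested 14.5% rose and 24.1% fell by the same rule, against 70% and 10% of the cytosolic genes and 0% and 43.8% of the mitochondrial genes. Deeply sequenced genes pass more easily. Of the 2591 genes with 1516 to 19887 reads, the range of the cytosolic members, 30.3% rose and 37.9% fell. Of the 6483 genes with 142 to 1440 reads, the range of the mitochondrial members, 14.6% rose and 28.4% fell. The mitochondrial share that fell thus lay nearer to its background than the cytosolic share that rose. Scaling by TMM in place of library totals raised the share of risen among all called genes from 37.6% to 52.1%. With it 16 cytosolic genes rose and 2 fell, and 1 mitochondrial gene (Fars2) rose and 6 fell, beside 20.1% risen and 18.5% fallen among all genes.

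The summed reads of the cytosolic genes were 65885 in control and 81968 in HTL, a log2 ratio of 0.50 (95% interval 0.49 to 0.52) after scaling to library totals. Those of the mitochondrial genes were 4192 and 2808, a log2 ratio of -0.39 (-0.46 to -0.32). The difference between the groups was 0.89 on the log2 scale (0.82 to 0.96), or 1.86-fold (two-sided Fisher's exact test on the reads, p = 3.23e-139). This difference does not depend on how the libraries are scaled, and it was 0.90 with Gars and Kars left out and 0.95 without Kars, the cytosolic gene with the most control reads. Counting Gars and Kars as mitochondrial instead would turn the mitochondrial sum from -0.39 to 0.28, since they hold more reads than the 16 other genes together. Mitochondrial synthetases made up 5.98% of the synthetase reads in control (Wilson 95% interval 5.81 to 6.16) and 3.31% in HTL (3.19 to 3.43).

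Member by member, the median log2 ratio was 0.41 over the cytosolic genes and -0.47 over the mitochondrial genes, beside -0.14 over all genes tested, of which 41.3% lay above 0. The log2 ratio of all genes varied with transcript length, from a median of 0.14 in the shortest of 10 equal bins to -0.38 in the longest, and its part in the results was not tested beyond the length adjustment. Relative to genes of similar length the cytosolic median was 0.59 and the mitochondrial median -0.32. Above 0 lay 16 of 20 cytosolic and 2 of 16 mitochondrial genes. Past 1.5-fold at the same adjusted p were 6 cytosolic genes higher (Aars, Gars, Iars, Nars, Sars and Yars) and 1 lower (Vars), and 6 mitochondrial genes lower (Aars2, Ears2, Pars2, Rars2, Vars2 and Wars2). The share of all genes past 1.5-fold was 7.37% higher and 16.2% lower. Under TMM these became 10.8% and 12.3%, with 9 cytosolic genes higher and 0 lower (Lars, Mars and Tars joined and Vars dropped out) and 1 mitochondrial gene higher (Fars2) and 5 lower. Past the 2-fold cutoff of the study were Gars and Nars, higher, and Pars2 and Wars2, lower. Of all genes tested 2.81% were higher and 7.98% lower by that rule. Under an assumed coefficient of variation of 0.2 between cultures none of the 39 passed (edgeR's exact test), and 6 were at an unadjusted p under 0.05, or 15.4% beside 16.5% of all genes tested, so that at this setting the members as a whole, both directions together, lay at the background. At a coefficient of 0.1 that share was 51.3% beside 36.6%. It held 10 cytosolic genes higher and 2 lower, and 1 mitochondrial gene higher and 7 lower.

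**Figure D1:**
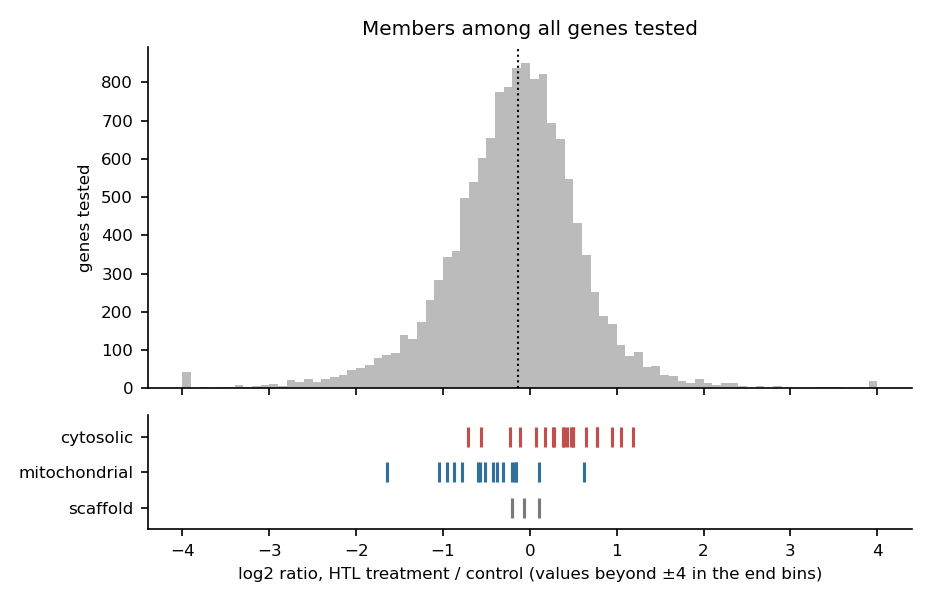
The upper panel counts all 13442 genes tested by their log2 ratio of HTL treatment over control, with a dotted line at their median of -0.14, and the lower panel marks each of the 39 members as a tick. The cytosolic ticks lie mostly to the right of that line and the mitochondrial ticks mostly to its left, with 17 of 20 cytosolic and 2 of 16 mitochondrial genes above it.

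Levels per length set the groups apart before any treatment. In control the cytosolic genes ran from 37.1 to 421 FPKM with a median of 76.9, and the mitochondrial genes from 2.32 to 30.6 with a median of 5.20. In HTL the ranges were 38.6 to 438 and 1.11 to 27.3, with medians of 107 and 4.82. No mitochondrial gene reached the level of the lowest cytosolic gene in either library, and the ratio of the medians was 14.8 in control and 22.2 in HTL. Kars, for lysine, had the highest level in both libraries. Mars, for methionine, was the lowest cytosolic gene in control, within counting error of Yars. Farsa was the lowest in HTL, with an interval that overlapped those of Vars and Dars. In each library 9 of the 19 pairs of neighbours in the cytosolic order had overlapping intervals. In the mitochondrial order these were 10 of 15 pairs in control and 12 of 15 in HTL, so that much of that order was not resolved at this depth.

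**Figure D2:**
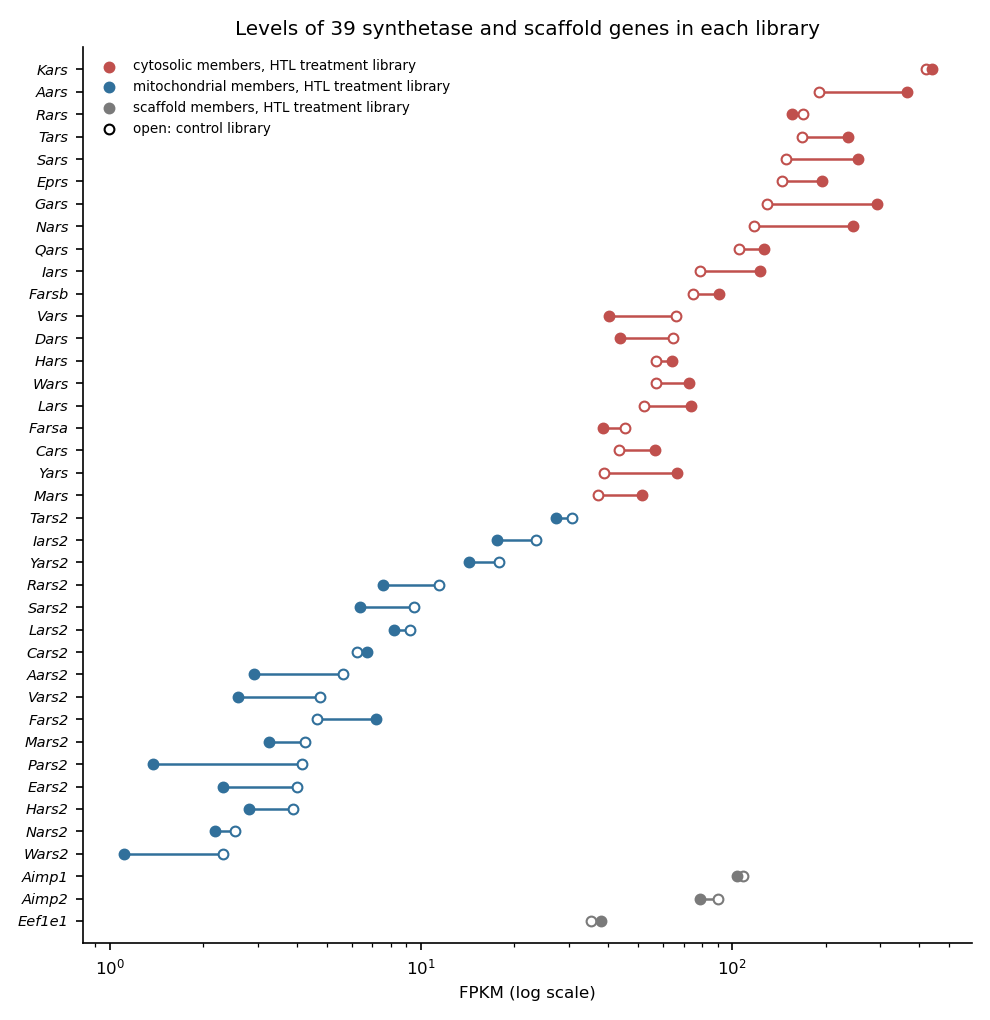
Each line joins a gene's FPKM in the control library (open circle) to its FPKM in the HTL library (filled circle), on a log axis, with genes ordered within group by control level. Cytosolic genes lie between 37.1 and 438 FPKM and mitochondrial genes between 1.11 and 30.6, and most cytosolic lines run to the right while most mitochondrial lines run to the left.

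Gars, for glycine (mm9 chr6:54987995-55029498, plus strand), rose the most of the 39, from 3209 reads (129 FPKM) in control to 6403 (293 FPKM) in HTL, a log2 ratio of 1.18 (1.12 to 1.24). Nars, for asparagine, went from 3269 reads (118 FPKM) to 5965 (245 FPKM), a log2 ratio of 1.05 (0.99 to 1.12). Aars, for alanine (mm9 chr8:113557044-113581564, plus strand), rose from 7389 reads (190.0 FPKM) to 12498 (365 FPKM), or 0.94 (0.90 to 0.99). Aars thus ended just short of the 2-fold cutoff, a log2 ratio of 1, and Nars lay just past it with an interval that includes it. Sars, for serine, rose from 149 to 254 FPKM (5642 and 8490 reads, 0.77). Yars, for tyrosine, rose from 38.9 to 66.5 FPKM (1163 and 1750 reads, 0.77). Iars, for isoleucine, rose from 78.8 to 123 FPKM (3617 and 4978 reads, 0.65). With library-total scaling these 6 were the cytosolic genes higher by 1.5-fold or more, and all 6 are among the 13 members commonly listed as ATF4 targets.

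The promoters of these genes are shown because the members that rose most share that listing. RefSeq promoter windows on GRCm38.p6, from 250 bases before to 50 after the start of transcription, were matched for 30 of the 39 genes and searched on both strands for TGATGNAA, the core of the C/EBP-ATF response element to which ATF4 binds. The letters were found in 3.97% of all 32851 windows and in 5 of the 30 member genes, all of them ATF4-listed cytosolic genes (5 of 8 with a window). They were in 0 of 5 other cytosolic, 0 of 14 mitochondrial and 0 of 3 scaffold genes. The ER stress response element was in 0.119% of windows and in 0 members. The stretches from 120 bases before to 20 after the start follow, 5′ to 3′ on the strand of the gene, with the match in capitals (read on the opposite strand in all but Yars). A match is a description of the letters, not evidence of binding, and a window without a match lacks only these letters.
Gars, chr6:55037881-55038020, plus strand: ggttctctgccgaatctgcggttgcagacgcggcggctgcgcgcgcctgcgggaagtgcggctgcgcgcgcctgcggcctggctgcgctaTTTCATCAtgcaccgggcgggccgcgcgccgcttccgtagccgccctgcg
Aars, chr8:111033722-111033861, plus strand: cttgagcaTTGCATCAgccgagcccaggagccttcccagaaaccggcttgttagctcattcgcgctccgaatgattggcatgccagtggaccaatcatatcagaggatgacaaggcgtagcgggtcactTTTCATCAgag
Yars, chr4:129189783-129189922, plus strand: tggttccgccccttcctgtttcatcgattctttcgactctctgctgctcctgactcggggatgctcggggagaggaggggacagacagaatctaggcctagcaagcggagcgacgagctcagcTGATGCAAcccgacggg
Iars, chr13:49682010-49682149, plus strand: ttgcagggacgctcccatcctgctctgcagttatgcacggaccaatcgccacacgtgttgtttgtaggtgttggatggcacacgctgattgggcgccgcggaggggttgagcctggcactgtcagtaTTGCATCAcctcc
Tars, chr15:11399639-11399778, minus strand: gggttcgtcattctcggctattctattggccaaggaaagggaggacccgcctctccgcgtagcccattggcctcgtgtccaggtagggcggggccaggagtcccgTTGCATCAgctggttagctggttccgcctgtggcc

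**Figure D3:**
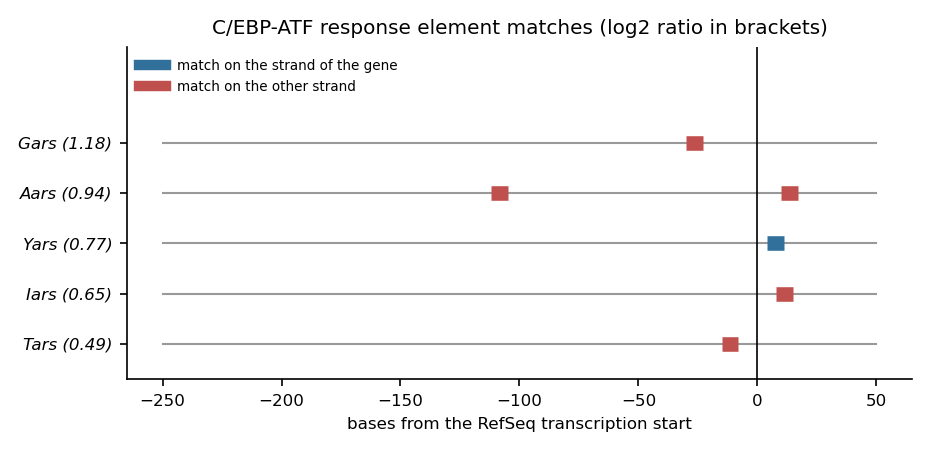
Each grey line is a promoter window from 250 bases before to 50 after the RefSeq transcription start (vertical line), for the 5 member genes with a match, and coloured blocks are the matches on the strand of the gene or the other strand. Of the 6 matches 5 lie within 30 bases of the start, and the remaining match, in Aars, lies at positions -112 to -105.

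Of the 5 genes with a match, Gars, Aars, Yars and Iars were past 1.5-fold with library-total scaling, and Tars was past it only under the other scalings and the length adjustment (0.59 to 0.63). Sars, also listed and past 1.5-fold, had a window without a match. So did Eprs and Mars, which are listed and rose by less. Tars, for threonine, rose from 168 to 236 FPKM (4596 and 5691 reads), a log2 ratio of 0.49 (0.44 to 0.55). Cars, Hars, Hars2, Lars, Nars, Pars2, Rars, Vars and Wars had no matched window and were not analysed here for motifs.

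The ATF4-listed genes had higher ratios than the other cytosolic genes, on a list that was drawn up with earlier results of these data known, so that the contrast is a description. Of the 13 listed genes 12 rose and 1, Vars, fell, with a median log2 ratio of 0.50. Of the 7 others 2 rose (Farsb and Qars), 1 fell (Dars) and 4 did not pass the test, with a median of 0.066. The summed reads went from 45157 to 63221 in the listed genes, a log2 ratio of 0.67 (0.65 to 0.69), and from 20728 to 18747 in the others, 0.041 (0.012 to 0.069). Kars held 9055 of the 20728 control reads of the others. The difference between the sums was 0.63 (counting interval 0.60 to 0.66), whatever the scaling. Under TMM the sums were 0.80 and 0.17 and the medians 0.63 and 0.20. The other cytosolic genes in turn stood above the mitochondrial genes by 0.43 (0.36 to 0.51).

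Lars, Mars, Eprs, Cars and Wars, also listed, rose by less than 1.5-fold with library-total scaling. Lars and Mars were past 1.5-fold under TMM (0.63 and 0.61), and relative to genes of similar length so was Eprs (0.71). Lars, for leucine, went from 52.3 to 73.8 FPKM (2099 and 2608 reads, a log2 ratio of 0.50). Mars went from 37.1 to 51.6 FPKM (1137 and 1393 reads), a log2 ratio of 0.48 (0.36 to 0.59). Eprs, the fused enzyme for glutamate and proline, went from 145 to 195 FPKM (7350 and 8696 reads, 0.43). These 3 products belong to the multi-synthetase complex. Cars, for cysteine, went from 43.4 to 56.8 FPKM (1370 and 1583 reads, 0.39), and Wars, for tryptophan, from 56.9 to 73.0 (1400 and 1600 reads, 0.38). Mars (mm9 chr10:126733277-126748842, minus strand) shares 68 exon bases, 1.99% of its exons, with Ddit3 on the opposite strand. Ddit3 itself rose from 98 to 385 reads, and since the use of strand in counting is not given in the sources used here, its part in the Mars reads was not tested.

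Of the 4 cytosolic genes with ratios below 0, Vars and Dars fell, and Farsa and Rars did not pass the test. Vars, for valine (mm9 chr17:35137932-35153267, plus strand), had 2916 reads (66.1 FPKM) in control and 1566 (40.3 FPKM) in HTL, a log2 ratio of -0.71 (-0.80 to -0.62). Dars, for aspartate, had 1506 reads (64.6 FPKM) and 894 (43.5 FPKM), a log2 ratio of -0.57 (-0.69 to -0.45; exact binomial test, adjusted p = 4.87e-20). Both fell, Vars past 1.5-fold, so that Gars and Vars differed in their response by 1.89 on the log2 scale (1.78 to 2.0). Of the Vars exons 304 bases overlap a gene on the opposite strand, D17H6S56E-5, which had 1576 and 701 reads. Its part in the Vars reads was not tested. Vars was short of 1.5-fold under TMM (-0.58), under median of ratios scaling (-0.57) and relative to genes of similar length (-0.51).

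Of the cytosolic genes not listed as ATF4 targets, Farsb and Qars rose, and under each of the 3 other scalings Hars and Kars rose as well. Farsb, the beta subunit for phenylalanine, went from 75.1 to 91.1 FPKM (1630 and 1743 reads, a log2 ratio of 0.28), and Qars, for glutamine, from 106 to 127 FPKM (2744 and 2901 reads, 0.27). Scaled to library totals, Hars, Kars and Rars did not pass. Hars, for histidine, had 57.0 and 64.4 FPKM (1179 and 1173 reads, log2 ratio 0.18, adjusted p = 0.0065 by the exact binomial test), and 195 of its exon bases overlap Hars2 on the opposite strand. Kars had 421 and 438 FPKM (9055 and 8338 reads, 0.066, exact binomial test, adjusted p = 0.0055). Rars, for arginine, had 169 and 156 FPKM (3747 and 3049 reads, -0.11, exact binomial test, adjusted p = 0.0035), and the sign of its ratio turned under other scalings.

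The subunits of the phenylalanine enzyme did not move together. Farsa, the alpha subunit, had 867 reads (45.5 FPKM) in control and 649 (38.6 FPKM) in HTL, a log2 ratio of -0.23 (-0.38 to -0.084), and did not pass (adjusted p = 0.0046 by the exact binomial test). Farsb stood above Farsa in its response by 0.51 (0.34 to 0.69), and its level went from 1.65 to 2.36 times that of Farsa. The enzymes that serve both compartments also differed, with Gars above Kars by 1.12 (1.04 to 1.19). These comparisons, and those of Gars with Vars and of Iars with Dars, were chosen after the values were seen.

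**Figure D4:**
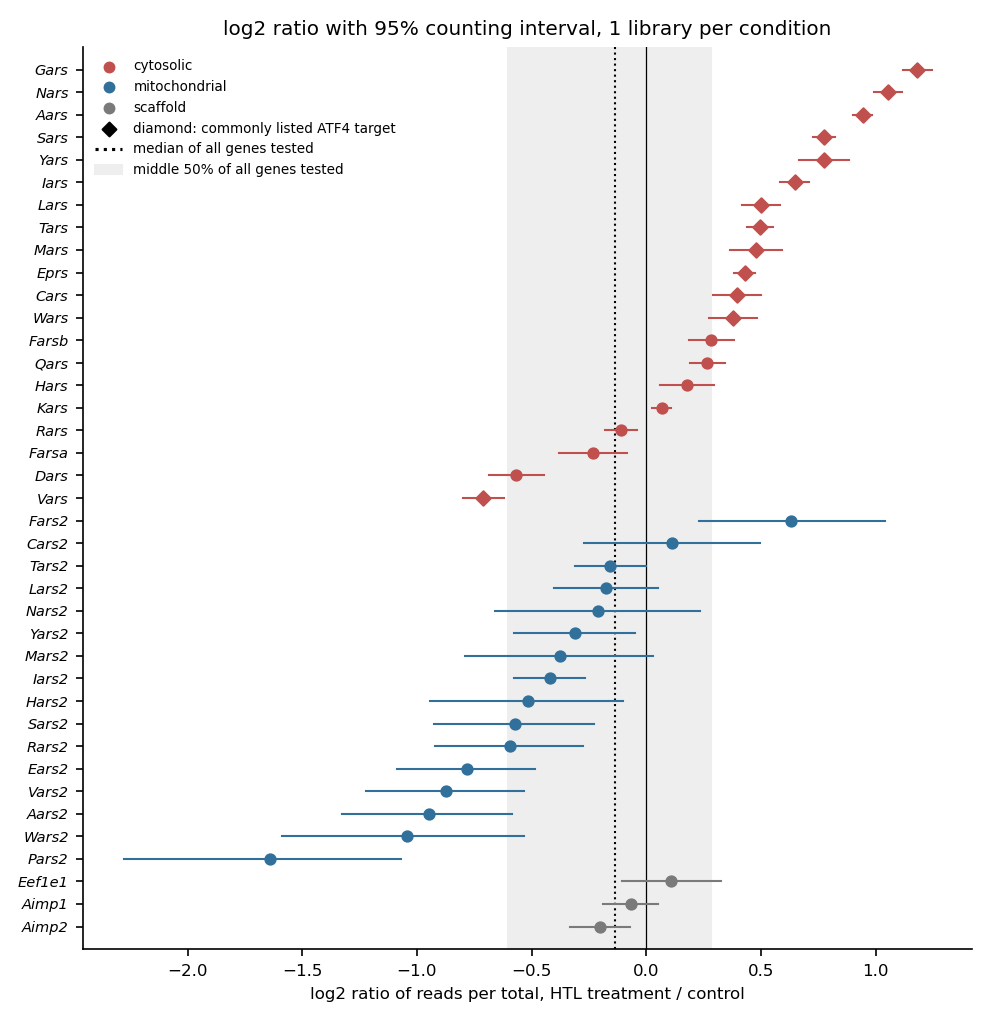
Points give the log2 ratio of HTL treatment over control for each member, with bars for the 95% counting interval, colours for the 3 groups and diamonds for commonly listed ATF4 targets, and the grey band holds the middle 50% of all genes tested around their dotted median. All 13 diamonds but Vars lie above 0, between 0.38 and 1.18, and of the mitochondrial points only Fars2 and Cars2 lie above 0.

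Most synthetases of the multi-synthetase complex rose, though not all moved in the same direction. Of the 8 synthetases of the complex 5 rose (Eprs, Iars, Lars, Mars and Qars), 1 fell (Dars) and 2 did not pass (Kars and Rars), over a range of log2 ratios from -0.57 to 0.65. Iars and Dars, at the ends of that range, differed by 1.21 (1.08 to 1.35). Their median log2 ratio was 0.35, against 0.44 for the 12 cytosolic genes outside the complex, of which 9 rose and 1 fell. The medians lay closer together than the sums. The summed reads of the complex gave a log2 ratio of 0.26 (0.24 to 0.28), against 0.69 (0.67 to 0.71) for the genes outside it. Kars, with a log2 ratio of 0.066, held 9055 of the 31255 control reads of the complex. The difference between the sums, 0.43 (0.40 to 0.46), was beyond counting error (Fisher's exact test, p = 7.84e-177).

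The scaffold genes lay within the middle 50% of all genes tested. Aimp1 had 109 FPKM in control and 104 in HTL (1244 and 1044 reads, a log2 ratio of -0.067, interval -0.19 to 0.052). Aimp2 had 90.4 and 78.8 FPKM (1111 and 849 reads, -0.20, -0.33 to -0.072), and Eef1e1, also known as AIMP3, had 35.1 and 37.8 FPKM (371 and 352 reads, 0.11, -0.10 to 0.32). None passed the test, and the sum of -0.095 (-0.18 to -0.013) was 0.60 below that of the cytosolic synthetases (interval of the difference 0.51 to 0.68). The sign of Aimp1, of Eef1e1 and of the sum depended on the scaling or the length adjustment. Of the Aimp2 exon bases 29.4% overlap Eif2ak1 on the opposite strand, whose reads were 836 and 572, and this overlap was not tested.

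Synthetases fall into structural classes by the fold of their catalytic domain. The 10 class I cytosolic genes, of which 8 rose and 1 fell, had a median log2 ratio of 0.41, and the 10 class II genes, of which 6 rose and 1 fell, a median of 0.39. The medians were close, while the summed reads of class II stood 0.31 (0.28 to 0.34) above those of class I. Among mitochondrial genes the class I median was -0.42 (9 genes, 5 fell) and the class II median -0.52 (7 genes, 2 fell).

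Pars2 and Wars2 had the lowest ratios of the mitochondrial synthetases, though their intervals overlapped that of Aars2. Pars2, for proline (mm9 chr4:106323674-106327887, plus strand), had 111 reads (4.15 FPKM) in control and 31 (1.38 FPKM) in HTL, a log2 ratio of -1.64 (-2.28 to -1.07). Wars2, for tryptophan (mm9 chr3:98944991-99043109, plus strand), had 106 reads (2.32 FPKM) and 45 (1.11 FPKM), a ratio of -1.04 (-1.59 to -0.53). Both fell past 2-fold, though the interval of Wars2 reaches well inside that limit and its call was lost under several settings. Aars2 fell from 5.64 to 2.91 FPKM (198 and 90 reads, -0.95, -1.33 to -0.59). Vars2 fell from 4.76 to 2.59 FPKM (221 and 106 reads, -0.87, -1.22 to -0.53), and Ears2, for glutamate, from 4.0 to 2.31 FPKM (274 and 140 reads, -0.78, -1.09 to -0.48). Rars2 fell from 11.4 to 7.54 FPKM (222 and 129 reads, -0.60, -0.92 to -0.28), a call lost under the other scalings. These 6 were the mitochondrial genes past 1.5-fold. Relative to genes of similar length Ears2 (-0.40) and Rars2 (-0.55) were short of it.

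Iars2, among the best covered mitochondrial genes, fell by less, from 23.6 to 17.6 FPKM (869 and 571 reads, a log2 ratio of -0.42, -0.58 to -0.27). Of its exon bases 22.7% overlap Rab3gap2 on the opposite strand, whose reads were 663 and 599. The other 9 mitochondrial genes did not pass. Sars2 had 9.53 and 6.38 FPKM (188 and 111 reads, -0.57, adjusted p = 0.0023 by the exact binomial test). Hars2 had 3.88 and 2.80 FPKM (127 and 78 reads, -0.52), Mars2 4.24 and 3.26 (127 and 86 reads, -0.38), and Yars2 17.9 and 14.3 (291 and 206 reads, -0.31). Nars2 had 2.54 and 2.19 FPKM (100 and 76 reads, -0.21, -0.66 to 0.23), and Lars2 9.26 and 8.18 (375 and 292 reads, -0.18, -0.40 to 0.049). Most of these intervals are wide, and a difference of the size seen in Ears2 lies within the interval of Hars2 and Mars2 at this depth.

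Tars2, the mitochondrial gene of highest level, had 30.6 and 27.3 FPKM (772 and 609 reads, a log2 ratio of -0.16, -0.31 to -0.0016). Cars2 and Fars2 alone had ratios above 0. Cars2 had 6.22 and 6.71 FPKM (120 and 114 reads, 0.11, -0.27 to 0.49). Fars2, for phenylalanine, had 4.65 and 7.18 FPKM (91 and 124 reads, 0.63, 0.23 to 1.04), and did not pass (exact binomial test, adjusted p = 0.0038), though it did under each of the 3 other scalings.

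For 17 pairs of a cytosolic and a mitochondrial gene for the same amino acid, the difference in response was taken from the reads of the pair alone, so that scaling has no part in it. Eprs was paired with both Ears2 and Pars2, and Fars2 with both Farsa and Farsb. The cytosolic gene stood above its counterpart in 15 of 17 pairs, with a median of 0.86 on the log2 scale, and the interval lay wholly above 0 in 13, held 0 in 3 and lay below 0 in 1. Pairs that share a gene are not independent. The widest gaps were those of Eprs over Pars2 at 2.08 (1.5 to 2.71) and of Aars over Aars2 at 1.90 (1.53 to 2.27). Mars stood above Mars2 by 0.86 (0.43 to 1.28). The intervals that held 0 were those of Cars over Cars2 (0.28), of Vars over Vars2 (0.16, -0.19 to 0.52) and of Farsb over Fars2 (-0.35).

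The valine pair thus had both genes lower in HTL, with no detectable difference between them. The phenylalanine pair ran the other way, with Farsa below Fars2 by -0.86 (-1.30 to -0.43). In levels, the cytosolic gene stood from 2.18 (Yars over Yars2) to 46.5 times (Nars over Nars2) above its counterpart in control, and from 4.64 (Yars over Yars2) to 141 times (Eprs over Pars2) in HTL.

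**Figure D5:**
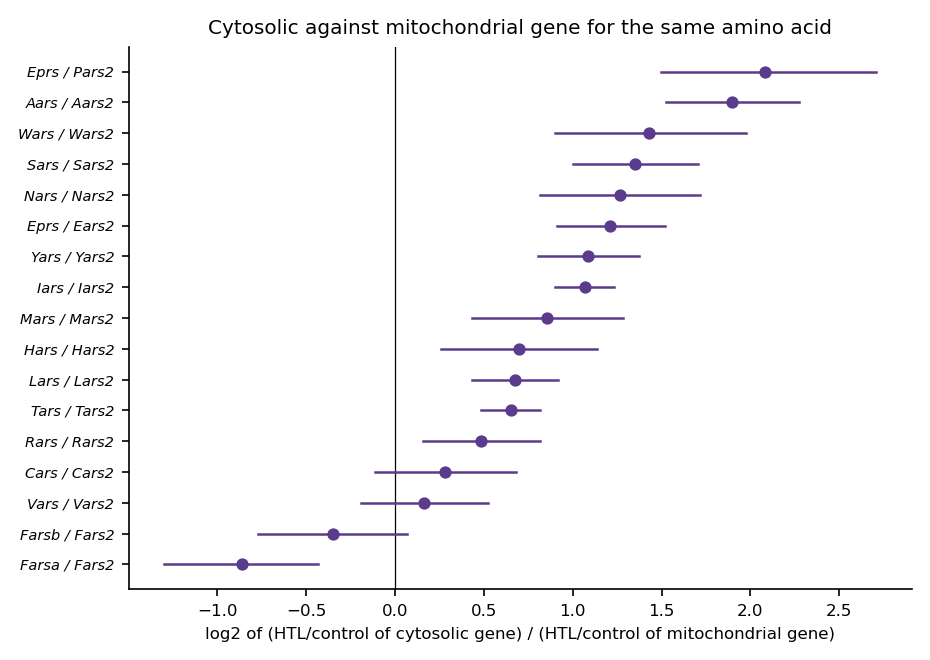
Points give, for each of 17 pairs, the log2 of the HTL over control ratio of the cytosolic gene divided by that of the mitochondrial gene, with 95% counting intervals. The interval lies above 0 in 13 pairs and below 0 for Farsa with Fars2.

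Genes that work next to the synthetases were read from a list of 24. These were editing factors, mitochondrial tRNA amidation and formylation, selenocysteine synthesis, addition of the CCA end of tRNA, elongation factors, uncharged tRNA sensing and peptidyl-tRNA hydrolases. Of these, 3 rose (Eef1a1, Eef1b2 and Eef1g) and 11 fell, or 12.5% and 45.8%, beside 14.5% and 24.1% of all genes tested. Their median log2 ratio of -0.21 lay near the -0.14 of all genes. The genes that rose encode subunits of the cytosolic elongation factor that brings charged tRNA to the ribosome, while Eef1d, a further subunit, fell (7263 and 5757 reads, -0.15), though not under the 3 other scalings. Past 1.5-fold were 0 higher and 6 lower, the latter 25% beside 16.2% of all genes. Under TMM 3 of the list rose and 7 fell, and 3 (Gatc, Impact and Prorsd1) were lower past 1.5-fold, or 12.5%, 29.2% and 12.5%, beside 20.1%, 18.5% and 12.3% of all genes, so that the share past 1.5-fold lay at its background. The named genes of the list that were not past 1.5-fold were picked after their values were seen. Gatc, a subunit of the mitochondrial amidotransferase that makes glutaminyl-tRNA, fell from 215 to 89 reads (-1.08). Prorsd1, related to proline editing domains, fell from 232 to 86 reads (-1.24), and Dtd2, an editing deacylase, from 129 to 66 (-0.78). Impact, an inhibitor of the uncharged tRNA sensor GCN2, fell from 718 to 271 reads (-1.22), while the gene of GCN2 itself, Eif2ak4, had 277 and 237 reads (-0.039). Ptrh2, a peptidyl-tRNA hydrolase, and Sephs2, of selenocysteine synthesis, fell by 0.69 and 0.67 on the log2 scale.

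Of 6 further genes of the ATF4 response, 5 rose. Atf4 rose from 192 to 509 FPKM (3047 and 7124 reads, a log2 ratio of 1.41). Trib3, Sesn2 and Ddit3 had ratios of 3.09, 2.39 and 2.15, each above that of every synthetase. Asns, asparagine synthetase, rose from 2416 to 4235 reads (1.00), close to Nars. Chac1, a glutathione-degrading enzyme also listed as a target, had 267 and 243 reads (0.049) and did not pass. Tarsl2, a paralogue of Tars named after its values were seen, had 104 and 51 reads (-0.84) and did not pass (exact binomial test, adjusted p = 0.0013).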

How the data were processed

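RNA-seq of NE4C cells gave 1 library per condition (TruSeq library kit, BGISEQ sequencing). The authors deposited, for each gene and library, an estimated count of reads (expected count, not normalized, from software that the methods spell RESM, taken here as RSEM) and an FPKM value, the count scaled to transcript length and library depth, which the methods call RPKM. The submitters' processing notes name mm9, while mapper, versions, annotation and strand use are not given in the sources used here. Deposited columns of the authors' own comparison (log2 ratio, direction, p-value and FDR) were not used.

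Counts were rounded, scaled to library totals (10350665 and 9102076 reads) and genes kept where both libraries summed to 10 reads or more, which left 13442 genes and all 39 members (142 to 19887 reads each). Each gene was tested by a two-sided exact binomial test with Benjamini-Hochberg adjustment, and log2 ratios had 0.5 read added, scaled to the totals. Intervals are Clopper-Pearson 95%. Rules were an adjusted p of at most 0.001 alone, with 1.5-fold, or with the 2-fold cutoff of the study. Groups and pairs of genes were compared by Fisher's exact test and the conditional odds ratio. Levels between genes were compared as FPKM. The named genes were all 39 members, the partner genes past 1.5-fold and all 6 genes of the ATF4 list, and exceptions are marked. Further genes first listed as partners are not reported here, and the 24 counted do not include them. The members and lists were chosen with earlier results of these data known.

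Exon overlaps came from the NCBIM37 GENCODE annotation: 12 members overlap a gene on the opposite strand. At most 1.69% of a member's 31-base words occur in another coding gene. Alternatives were 3 scalings by edgeR 4.0.16 factors (R 4.3.3), 2 filters, 5 reads added, FPKM + 1, 2 other cutoffs, edgeR's exact test with an assumed coefficient of variation of 0.1, 0.2 or 0.4, and ratios relative to genes in the same of 10 equal bins of transcript length. Quasi-likelihood and DESeq2 models could not be fitted without replicates. On simulated data for this comparison 13463 genes were tested. Of 200 genes changed by 1.5 on the log2 scale 200 were called, and 0 unchanged genes. That change is larger than the change of every member but Pars2, so the result does not show how smaller changes fare. Variation between cultures cannot be learned from 1 library per condition, so the 0 is no measure of false calls in the real comparison. Python 3.11.15 with scipy 1.17.1 was used.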

Additional observations from a re-analysis of the deposited data

How the results depend on the processing

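Scaling by TMM, median of ratios or upper quartile moved every log2 ratio up by 0.13, 0.14 or 0.093. Of the 39 members 36 kept their sign under every setting. Rars turned to 0.018 (TMM), 0.025 (median of ratios) and 0.00078 (length), Aimp1 to 0.063, 0.069 and 0.026 (TMM, median of ratios, upper quartile), Eef1e1 to -0.028 (length), and Vars against Vars2 to -0.019 on FPKM + 1. The scaffold sum turned to 0.035 (TMM) and 0.042 (median of ratios), and the mitochondrial sum to 0.28 with Gars and Kars added. The cytosolic median was 0.54, 0.55 and 0.50 under the 3 scalings and 0.59 relative to genes of similar length, while the mitochondrial median was -0.34, -0.33 and -0.37, and -0.32, and the mitochondrial sum -0.26, -0.26 and -0.30 under the 3 scalings. Aars passed 2-fold under those 4 settings (1.07, 1.08, 1.04 and 1.11), and Wars2 lost it there (-0.91, -0.91, -0.95 and -0.84), with 5 reads added (-0.98), on FPKM + 1 (-0.65) and at an assumed coefficient of variation of 0.1. Past 1.5-fold and higher were 10 members under TMM, median of ratios and length (6 by library totals), and lower were 4 under length (7 by library totals). With no fold cutoff 23 members were called rather than 4 past 2-fold or 13 past 1.5-fold. With variation between cultures assumed, 4 members (Aars, Gars, Nars and Pars2) were past 1.5-fold at a coefficient of 0.1 by edgeR's exact test. That was 10.3% of the members, beside 10.1% of all genes. At 0.1, 20 members (51.3%, beside 36.6% of all genes) were at an unadjusted p under 0.05. Of these, 10 cytosolic and 1 mitochondrial genes were higher, and 2 cytosolic and 7 mitochondrial genes lower. At 0.2 and 0.4, 0 members were called by either rule, beside 0.893% and 0.0446% of all genes past 1.5-fold. At an unadjusted p under 0.05 were 6 members at 0.2 (15.4%, beside 16.5%) and 0 at 0.4 (beside 3.36%). At 0.2 these 6 were Aars, Gars and Nars, higher, and Aars2, Pars2 and Wars2, lower. No paired analysis was possible because control and HTL were sequenced in 1 library each, and leaving out a library would leave no comparison. Depth limits the mitochondrial genes most, with 31 to 869 reads per library.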
